A study of Mus musculus with 6 samples.

Results

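The genes described here are 34 markers of microglia and macrophages, taken as a list of symbols and matched exactly to the symbols of the expression tables. All 34 were found among the 24346 symbols listed. They were read in 4 classes, with 7 homeostatic microglial, 16 pan-myeloid, 8 phagocytic and 3 MHC class II genes. mRNA was measured in whole mouse retina, in 3 libraries from Unc119-/- mice (knockout) and 3 from Unc119+/+ mice (wild type). UNC119 is a lipid-binding protein that shuttles transducin and other acylated proteins inside photoreceptors, and the study's title ties its loss to cone-rod dystrophy and to inflammatory signalling. No treatment is labelled for either genotype. The sources used here give no strain, age, design of the Unc119 allele or number of animals behind a library, so p-values reflect library-to-library spread alone, some of it possibly technical.

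Microglia are the resident macrophages of the retina. In the healthy tissue they lie in the synaptic layers and express a homeostatic set of receptors that sense nucleotides, chemokines and lipids. When photoreceptors are stressed or die, microglia can move to the outer retina, take up debris and turn on genes of phagocytosis, lysosomes and antigen presentation, while blood monocytes may join them and share most pan-myeloid markers. Levels are given in FPKM, fragments normalised to library size and transcript length. Differences are given on the scale of log2(FPKM + 1), knockout minus wild type, where differences of low-level genes come out smaller. In bulk tissue a different number of cells of a type and a different amount of RNA per cell cannot be told apart.

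Unc119 measured 473 ± 32.8 FPKM in knockout and 1195 ± 10.1 FPKM in wild-type libraries (SD, n = 3 each), so the knockout kept 39.6% of the wild-type level (log2 difference -1.34, limma adjusted p = 6.6e-05). Relative depth, with wild-type replicate 2 set to 1, was 0.931 to 0.964 in knockout and 0.763 to 1 in wild-type libraries. By Xist and Y-linked genes, knockout replicates 2 and 3 were female and knockout replicate 1 was male, while wild-type replicate 3 was female and wild-type replicates 1 and 2 were male. The retinas carried different amounts of other eye tissue. The 11 lens markers summed to 52.0, 181 and 553 FPKM in knockout replicates 1, 2 and 3 and to 41.7, 147 and 0.514 FPKM in the wild-type replicates, and no member was removed for this.

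No member passed the test, and most were at somewhat higher values in the knockout libraries. Of the 34 genes, 27 had a mean of at least 0.5 FPKM over the 6 libraries and were tested, and 7 were too low to test. None of the 27 was called at an adjusted p under 0.05 by limma, adjusted over all 14176 genes tested by Benjamini and Hochberg's method, where 0.205% of genes were called higher and 0.0282% lower in the knockout. At an unadjusted p under 0.05, 9 of the 27 were higher and 0 lower in the knockout, beside 5.19% and 3.81% of all genes tested. The 9 were Selplg, Tyrobp, Aif1, Laptm5, Cd52, Mpeg1, Trem2, Cd68 and Lyz2. Leaving out knockout replicate 2 gave 5 such members, leaving out wild-type replicate 1 gave 4, and the fit gave 5 with a term for either the sex or the lens level of a library. The counts over all genes in those fits are not given here, so these changes cannot be read as particular to the members.

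Summed over all members, the libraries held 62.3, 76.5 and 77.0 FPKM in knockout replicates 1, 2 and 3, against 51.9, 47.4 and 51.8 FPKM in the wild type (72.0 ± 8.33 and 50.4 ± 2.57, SD, n = 3 each). Each knockout sum lay above each wild-type sum. The log2 difference was above 0 for 31 of the 34 members, beside 51.4% of the 18240 genes seen in some library. For 12 of the 34 every knockout library lay above every wild-type library, beside 7.41% of those genes. The reverse order held for 0 members, beside 6.73%. Of the 30 members above 0 in every wild-type library, 12 had a ratio of means of at least 1.5, beside 5.46% of such genes. The median log2 difference of the members was 0.20, and that of all genes was 0.004. Genes with a mean of 0.5 to 10 FPKM had a median of 0.019, with 54.9% above 0. Genes under the filter but seen in some library had a median of 0.023, with 59.0% above 0. The other shares given here are of genes at all levels. The members were low in this tissue, with a median level of 1.46 FPKM against 11.0 FPKM for the genes tested, and only Spp1 averaged 5 FPKM or more. The lowest member inside the filter was Cd74, with a mean of 0.569 FPKM, and the highest outside it was Cd53, with 0.477 FPKM.

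**Figure D1:**
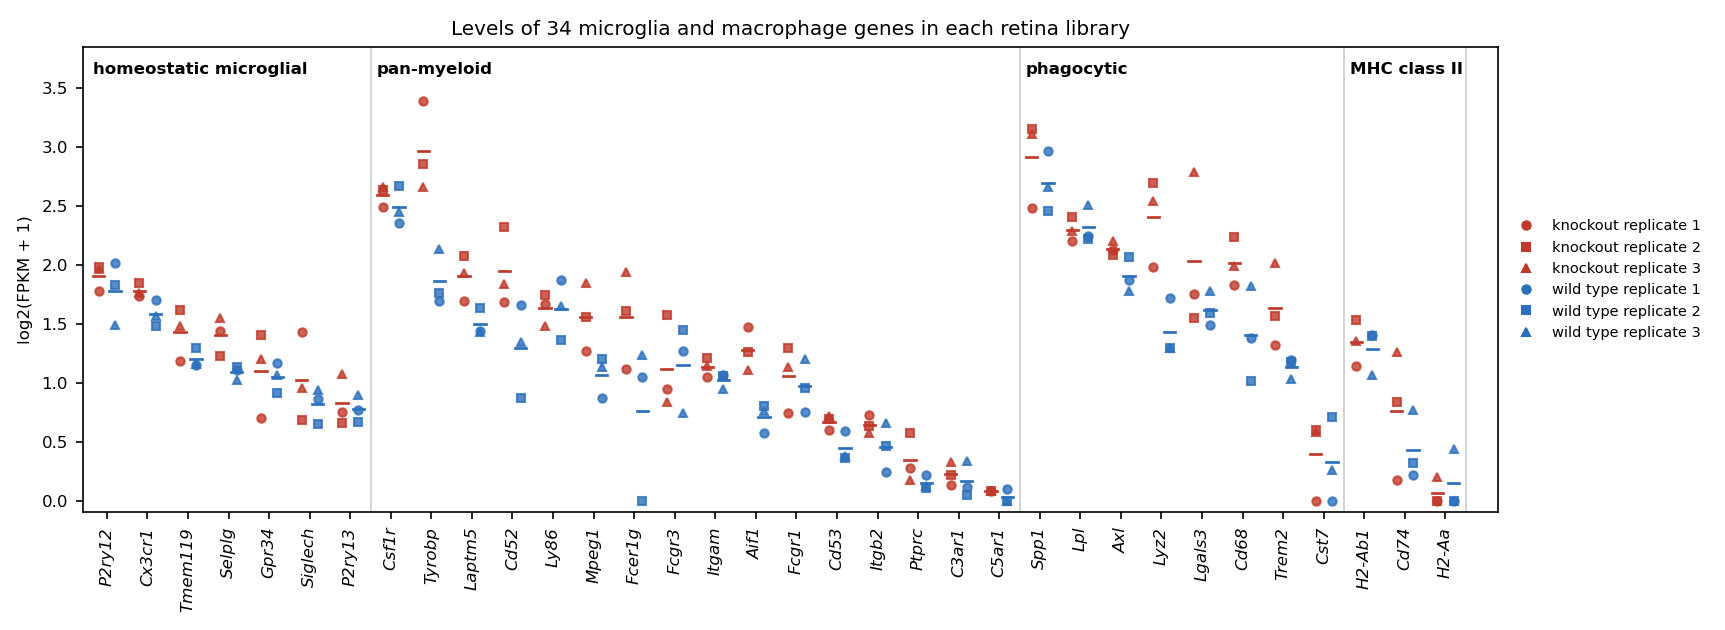
Level of each of the 34 genes in each library as log2(FPKM + 1), with knockout libraries in red left of wild-type libraries in blue, symbols for the replicate and a bar at the mean of each genotype. Spp1 had the highest mean level, and the genotypes were widest apart for Tyrobp, with 5.32 to 9.50 FPKM in knockout and 2.24 to 3.40 FPKM in wild-type libraries.

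**Figure D2:**
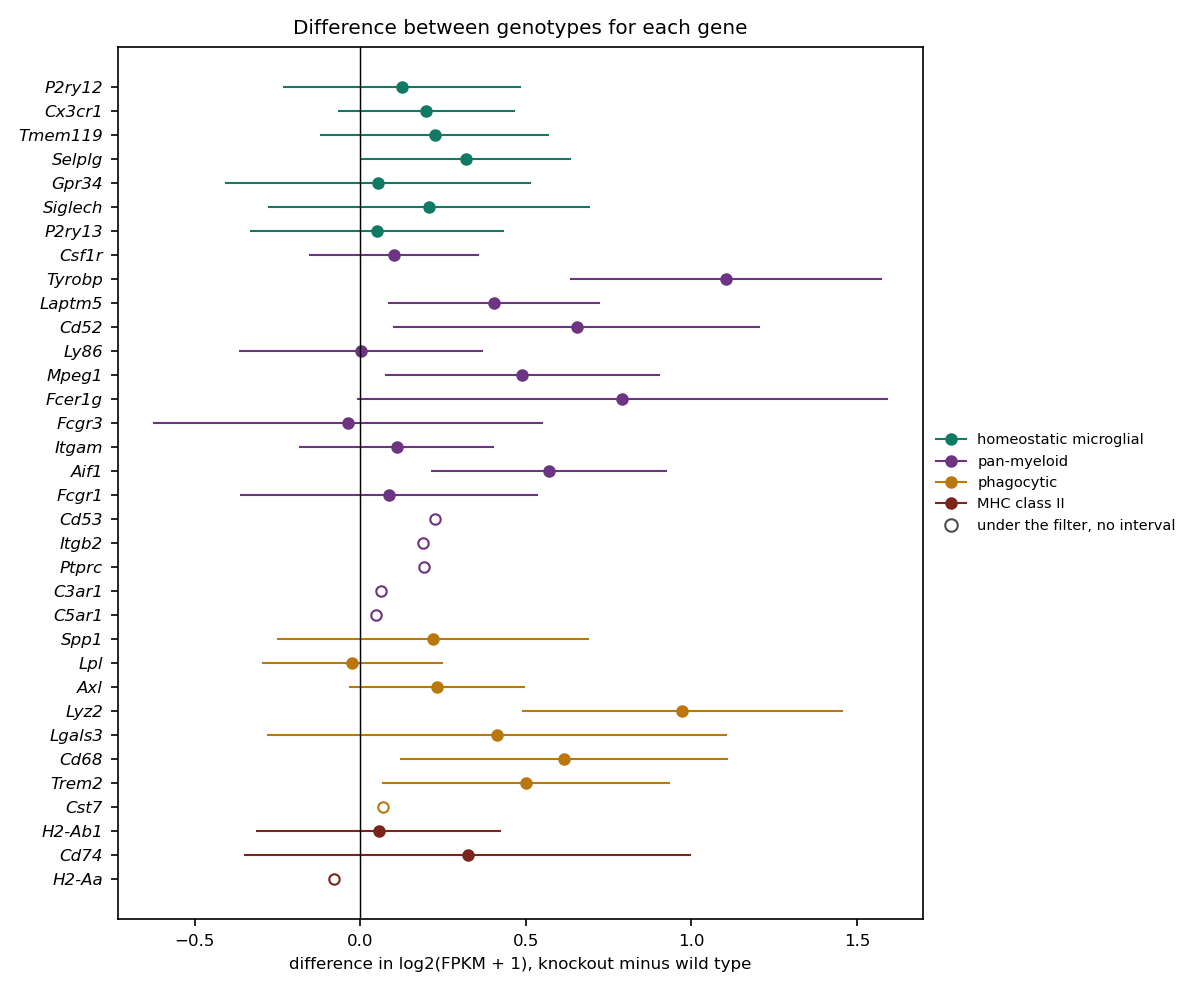
Difference in log2(FPKM + 1), knockout minus wild type, for each member by class, with 95% intervals from limma for the 27 genes tested and open circles for the 7 under the filter. The points lie right of 0 for 31 of the 34 genes, and 9 intervals do not reach 0, before any adjustment.

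Promoter sequence was looked at because JAK-STAT and NF-kB signalling are in the study's title, and their factors act on some of these genes. RefSeq promoters on GRCm38.p6 were matched by symbol for 24 of the 34 members, and the 250 bases before the start were searched on both strands. The letters searched were GAGGAAGT for PU.1, a pair of GAAA runs spaced by 2 bases for IRF factors, TTCNNNGAA for STAT factors, TTGCGCAA and TTGCNNCAA for C/EBP factors, GGGANNTCC and the classical kappa B decamer for NF-kB, and CTGATTGG for the Y box of MHC class II genes. The 5 members with a match are shown by the 160 bases before the start, 5′ to 3′ on the gene's strand, with the matches in capitals, since they are the members whose promoter holds letters tied to these pathways or to myeloid and MHC class II control. Aif1 lies at chr17:35176053-35176212 (minus strand), Fcgr1 at chr3:96293970-96294129 (minus), Siglech at chr7:55768024-55768183 (plus), Spp1 at chr5:104434951-104435110 (plus) and H2-Aa at chr17:34287824-34287983 (minus).
Aif1: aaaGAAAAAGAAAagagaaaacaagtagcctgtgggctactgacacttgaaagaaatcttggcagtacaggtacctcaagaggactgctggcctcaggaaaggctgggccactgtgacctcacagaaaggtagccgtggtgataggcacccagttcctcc
Fcgr1: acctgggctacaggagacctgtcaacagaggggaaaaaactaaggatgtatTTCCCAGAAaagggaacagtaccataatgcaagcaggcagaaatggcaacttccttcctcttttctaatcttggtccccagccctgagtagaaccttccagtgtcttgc
Siglech: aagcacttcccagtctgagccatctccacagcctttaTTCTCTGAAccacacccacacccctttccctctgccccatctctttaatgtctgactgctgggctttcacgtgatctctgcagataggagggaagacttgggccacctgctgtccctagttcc
Spp1: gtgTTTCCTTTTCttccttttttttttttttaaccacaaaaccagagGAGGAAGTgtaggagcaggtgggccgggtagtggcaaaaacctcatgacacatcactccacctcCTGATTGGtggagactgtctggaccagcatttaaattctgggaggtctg
H2-Aa: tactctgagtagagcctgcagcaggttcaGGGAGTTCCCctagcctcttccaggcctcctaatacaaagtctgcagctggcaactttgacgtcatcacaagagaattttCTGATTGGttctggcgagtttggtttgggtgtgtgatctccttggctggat

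The capitals mark an IRF match in Aif1 and a STAT match in each of Fcgr1 and Siglech. In Spp1 they mark, in order, an IRF match on the other strand, a PU.1 match and the letters CTGATTGG. Spp1 is not an MHC class II gene, so there the letters are not called a Y box of that class. In H2-Aa they mark a pair of overlapping NF-kB matches, and after them a Y box. Over all promoter windows of the same length, these letters occurred in 2.44% for PU.1, 2.98% for IRF, 7.02% for STAT, 1.90% for C/EBP, 3.72% for NF-kB and 3.83% for the Y box. Of the 27 windows of the 24 members, 1 held a match for PU.1, 2 for IRF and 2 for STAT. C/EBP had 0, NF-kB 1 and the Y box 2. The share of all windows with any of these letters was not taken, so the 5 members have no background beside them. Of the 5 genes, Aif1 is 1 of the 9 members with an unadjusted p under 0.05. A match describes letters in this window only.

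None of the homeostatic microglial genes passed the test. All 7 had a log2 difference above 0, with a median of 0.20, and for Cx3cr1 and Selplg the genotypes did not overlap. Over the genes seen in some library, 51.4% lay above 0 and 7.41% had every knockout library above every wild-type library. Selplg (ENSMUSG00000048163.13, chromosome 5, 113818536 to 113832644, minus strand), the ligand of P-selectin, was at 1.72, 1.34 and 1.94 FPKM in knockout replicates 1, 2 and 3, against 1.15, 1.19 and 1.03 FPKM in the wild-type replicates. Each knockout value lay above each wild-type value, and the log2 difference was 0.32 with a standard error of 0.14 (limma unadjusted p = 0.0463, adjusted p = 0.549). Cx3cr1, the receptor for the neuronal chemokine fractalkine, measured 2.32, 2.60 and 2.40 FPKM in the knockout and 2.25, 1.79 and 1.96 FPKM in the wild type. The gap between the lowest knockout and the highest wild-type library was small, and the log2 difference of 0.20 had a 95% interval of -0.06 to 0.46 (adjusted p = 0.637).

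Tmem119, a membrane protein that marks microglia, had 1.28, 2.07 and 1.79 FPKM in knockout and 1.22, 1.46 and 1.24 FPKM in wild-type libraries (adjusted p = 0.681). P2ry12, the ADP receptor that guides microglial processes, had 2.43, 2.94 and 2.90 FPKM in knockout and 3.05, 2.56 and 1.81 FPKM in wild-type libraries (adjusted p = 0.828). The genotypes overlapped for both, and for P2ry12 the highest library was a wild-type one. The remaining 3 genes also overlapped. Siglech, a receptor of the Siglec family, had 1.70, 0.609 and 0.941 FPKM in knockout and 0.817, 0.567 and 0.916 FPKM in wild-type libraries (log2 difference 0.21, adjusted p = 0.778). Gpr34, a lysophospholipid receptor, ran from 0.628 to 1.65 FPKM in knockout and from 0.881 to 1.25 FPKM in wild-type libraries, and P2ry13, another ADP receptor, from 0.575 to 1.11 FPKM in knockout and from 0.589 to 0.865 FPKM in wild-type libraries. P2ry12 and P2ry13 lie opposite to Med12l and Gpr34 lies opposite to Cask. Gpr34 and P2ry13 share no exonic base with them and P2ry12 shares 9, and the sources used here do not say whether counting used strand.

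The pan-myeloid genes held the member with the largest difference and the smallest p. Tyrobp (ENSMUSG00000030579.10, chromosome 7, 30413760 to 30417585, plus strand) encodes DAP12, the signalling adaptor that pairs with TREM2. It measured 9.50, 6.24 and 5.32 FPKM in knockout replicates 1, 2 and 3, against 2.24, 2.39 and 3.40 FPKM in the wild-type replicates. All knockout libraries lay above all wild-type libraries, and the means differed 2.62-fold. The log2 difference was 1.10 with a standard error of 0.20 and a 95% interval of 0.64 to 1.57 (limma unadjusted p = 0.000659, adjusted p = 0.156). Over the 16 alternative settings it was 0.89 to 1.43, with adjusted p-values of 0.062 to 0.460.

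Aif1 (ENSMUSG00000024397.14, chromosome 17, 35170991 to 35176068, minus strand), which encodes the actin-binding protein IBA1 used to stain microglia, had the next smallest p of the class. Its level was 1.78, 1.39 and 1.15 FPKM in the knockout and 0.484, 0.740 and 0.689 FPKM in the wild type, 2.26-fold apart by the means (log2 difference 0.57, adjusted p = 0.352). The order of the knockout replicates was the same as for Tyrobp, with replicate 1 highest. Laptm5 (ENSMUSG00000028581.17, chromosome 4, 130913125 to 130936141, plus strand), a lysosomal membrane protein of blood-derived cells, had 2.24, 3.23 and 2.82 FPKM in knockout and 1.71, 2.1 and 1.69 FPKM in wild-type libraries (adjusted p = 0.474). Mpeg1 (ENSMUSG00000046805.10, chromosome 19, 12460779 to 12465283, plus strand), a pore-forming protein of phagocytes, had 1.42, 1.94 and 2.59 FPKM in knockout and 0.828, 1.29 and 1.20 FPKM in wild-type libraries (adjusted p = 0.499). Its log2 difference of 0.49 was 0.30 to 0.77 over the 16 alternative settings. Cd52 (ENSMUSG00000000682.7, chromosome 4, 134082448 to 134095082, minus strand), a small surface glycoprotein, had 2.21, 3.99 and 2.57 FPKM in knockout and 2.17, 0.827 and 1.54 FPKM in wild-type libraries (adjusted p = 0.499). None of the 3 overlapped between genotypes, though for Cd52 knockout replicate 1 and wild-type replicate 1 nearly met, and its exons share 172 bases with Crybg2 on the opposite strand.

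Csf1r, the receptor for CSF1 and IL-34 on which microglia depend for survival, was the member of this class with the highest mean level in wild type. It measured 4.64, 5.20 and 5.31 FPKM in the knockout and 4.13, 5.35 and 4.46 FPKM in the wild type. The genotypes overlapped, with the highest library a wild-type one, and the log2 difference of 0.10 had a 95% interval of -0.15 to 0.36 (adjusted p = 0.795). Csf1r shares 873 exonic bases with Hmgxb3 on the opposite strand, a gene at 10.8 FPKM, so part of its reads may not be told apart. Fcer1g, the adaptor of Fc receptors, had 1.17, 2.05 and 2.83 FPKM in knockout libraries and 1.07, 0 and 1.36 FPKM in wild-type libraries, with a 95% interval of the log2 difference of -0.01 to 1.59 (adjusted p = 0.557).

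Among the other pan-myeloid genes tested, differences were close to 0 and the genotypes overlapped. The IgG receptors Fcgr1 and Fcgr3 had log2 differences of 0.09 and -0.04, the integrin chain Itgam, whose exons share 3450 bases with Gm49368 on the same strand, had 0.11 and the RP105 partner Ly86 had 0.00. The 5 untested genes were at most at 0.650 FPKM in any library. Cd53, a tetraspanin of leukocytes, had 0.512, 0.617 and 0.646 FPKM in knockout and 0.502, 0.287 and 0.297 FPKM in wild-type libraries, without overlap. The leukocyte phosphatase Ptprc (CD45) ran from 0.130 to 0.484 FPKM in knockout and from 0.0750 to 0.164 FPKM in wild-type libraries. The integrin chain Itgb2 ran from 0.485 to 0.650 FPKM in knockout and from 0.184 to 0.581 FPKM in wild-type libraries. The anaphylatoxin receptors C3ar1 and C5ar1 reached at most 0.264 and 0.0715 FPKM in any library.

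The phagocytic genes had a median log2 difference of 0.32, and 4 of the 8 did not overlap. Over the genes seen in some library, 7.41% had every knockout library above every wild-type library. Lyz2 (ENSMUSG00000069516.8, chromosome 10, 117277331 to 117282321, minus strand), the lysozyme of macrophages, measured 2.96, 5.47 and 4.83 FPKM in knockout replicates 1, 2 and 3, against 2.29, 1.46 and 1.45 FPKM in the wild-type replicates. The knockout libraries all lay higher, 2.55-fold by the means, and the log2 difference was 0.97 with a standard error of 0.21 and a 95% interval of 0.49 to 1.45 (limma unadjusted p = 0.00167, adjusted p = 0.229). Its near-identical neighbour Lyz1 was at 0.250, 0.377 and 0.364 FPKM in knockout and 0.153, 0.468 and 0.436 FPKM in wild-type libraries, and how reads were split between the copies is not known.

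Cd68 (ENSMUSG00000018774.13, chromosome 11, 69664213 to 69666153, minus strand), a glycoprotein of phagocyte lysosomes, had 2.55, 3.71 and 2.98 FPKM in knockout and 1.60, 1.02 and 2.53 FPKM in wild-type libraries (adjusted p = 0.491). Trem2 (ENSMUSG00000023992.14, chromosome 17, 48346401 to 48354147, plus strand), the lipid receptor that signals through Tyrobp, had 1.5, 1.95 and 3.05 FPKM in knockout and 1.28, 1.26 and 1.04 FPKM in wild-type libraries (adjusted p = 0.504). Its log2 difference of 0.50 was 0.23 to 0.75 over the 16 alternative settings. Axl, a receptor tyrosine kinase that recognises apoptotic cells through bridging proteins, had 3.36, 3.23 and 3.60 FPKM in knockout and 2.66, 3.19 and 2.43 FPKM in wild-type libraries (adjusted p = 0.590). For each of the 3 the lowest knockout library lay above the highest wild-type library, narrowly so for Cd68 and Axl.

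Spp1, the secreted protein osteopontin, had the highest mean of all members, 6.71 ± 1.84 FPKM in knockout and 5.55 ± 1.18 FPKM in wild-type libraries (SD, n = 3 each, adjusted p = 0.757). It is also made by some retinal ganglion cells, so its level in whole retina is not that of microglia alone. Single libraries ran from 4.59 to 7.90 FPKM in the knockout and from 4.50 to 6.83 FPKM in the wild type, with wide overlap. Lgals3, which encodes galectin-3, had 2.37, 1.93 and 5.93 FPKM in knockout and 1.80, 2.01 and 2.44 FPKM in wild-type libraries (log2 difference 0.41, adjusted p = 0.699). Its highest value was in knockout replicate 3, where lens RNA was also highest, and the log2 difference was 0.033 without that library, 0.65 without knockout replicate 2 and 0.097 with the lens term. Lpl, lipoprotein lipase, was the 1 phagocytic gene with a difference below 0, at 3.60, 4.31 and 3.89 FPKM in knockout and 3.73, 3.66 and 4.70 FPKM in wild-type libraries (log2 difference -0.02, 95% interval -0.29 to 0.25). Cst7, cystatin F, was under the filter, listed at 0 in 1 library of each genotype and at no more than 0.635 FPKM elsewhere.

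The MHC class II genes were low and did not separate the genotypes. Cd74, the invariant chain, had 0.130, 0.785 and 1.39 FPKM in knockout and 0.160, 0.244 and 0.705 FPKM in wild-type libraries, and passed the filter only through the knockout. H2-Ab1, the beta chain of the I-A molecule, had 1.21, 1.89 and 1.56 FPKM in knockout and 1.65, 1.63 and 1.09 FPKM in wild-type libraries. The log2 difference was 0.32 for Cd74 (95% interval -0.35 to 1.0, adjusted p = 0.753) and 0.06 for H2-Ab1 (95% interval -0.31 to 0.42, adjusted p = 0.936), and both genes overlapped between genotypes. The difference for Cd74 was 0.074 without knockout replicate 3, 0.61 without knockout replicate 1, 0.49 without wild-type replicate 3, 0.21 without wild-type replicate 1 and 0.095 with the sex term. The alpha chain gene H2-Aa, whose promoter is shown above, was listed at 0 in 4 libraries, at 0.149 FPKM in knockout replicate 3 and at 0.357 FPKM in wild-type replicate 3.

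Set side by side, the class sums per library were apart for 3 classes and overlapped for MHC class II. Pan-myeloid genes summed to 29.3, 33.0 and 29.1 FPKM in knockout replicates 1, 2 and 3, against 19.5, 18.8 and 20.6 FPKM in the wild-type replicates. Phagocytic genes summed to 20.9, 29.0 and 32.4 FPKM in the knockout and to 20.2, 17.7 and 20.1 FPKM in the wild type, so knockout replicate 1 was close to the wild-type libraries. Homeostatic genes summed to 10.8, 11.8 and 12.4 FPKM in the knockout and to 10.4, 9.04 and 8.91 FPKM in the wild type. Knockout replicate 1 was thus close to wild-type replicate 1, and Siglech, at 1.70 FPKM, was highest there. By the class median, knockout replicate 1 (-0.003) lay below wild-type replicate 1 (0.046). Sums of other gene sets were not taken, so the separations have no background beside them. MHC class II genes summed to 1.34, 2.67 and 3.10 FPKM in the knockout and to 1.80, 1.88 and 2.15 FPKM in the wild type. Class medians of the log2 difference were 0.20 for homeostatic, 0.19 for pan-myeloid, 0.32 for phagocytic and 0.06 for MHC class II genes, and no test was made of the classes against each other. An unadjusted p under 0.05 was reached by 1 of 7 homeostatic and 5 of 11 pan-myeloid genes tested. It was reached by 3 of 7 phagocytic and 0 of 2 MHC class II genes tested. Each time the higher values were in the knockout. Of all genes tested, 5.19% were higher and 3.81% lower at that threshold. Counts of 1 of 7 and 0 of 2 are too small to be told apart from those shares. The order of the classes turned with the settings. The phagocytic median was 0.49 without knockout replicate 1, but it lay below the pan-myeloid median with a pseudocount of 0.1 (0.41 against 0.55), with the lens term (0.11 against 0.22) and without knockout replicate 3 (0.16 against 0.21). The MHC class II median was -0.038 without knockout replicate 2 and -0.021 with the lens term.

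**Figure D3:**
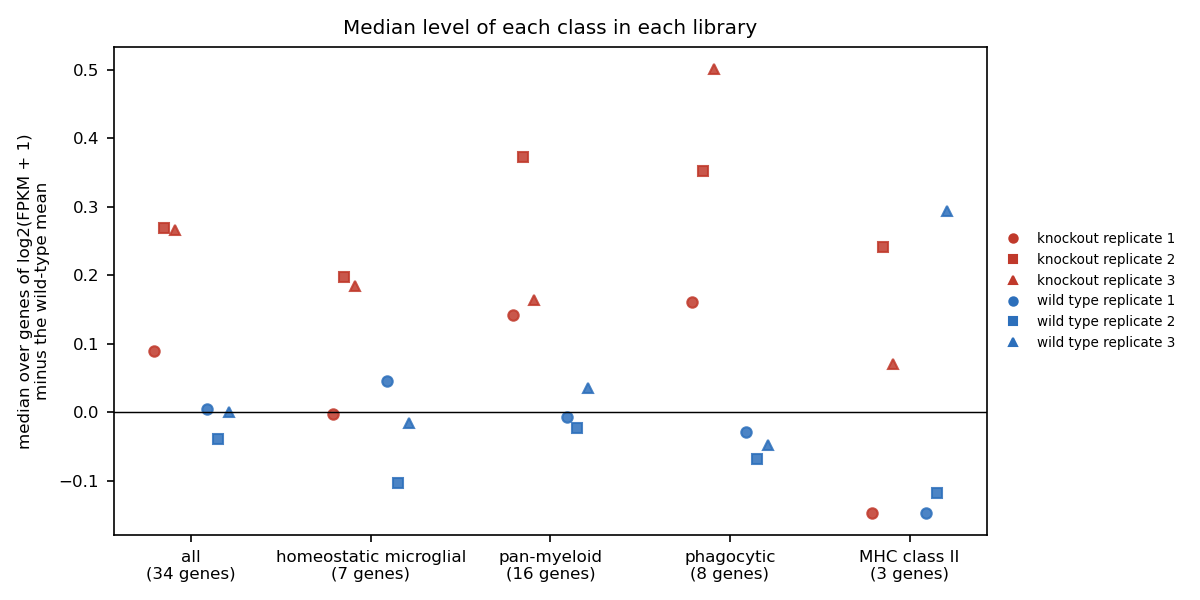
Median over the genes of a class of log2(FPKM + 1) minus the wild-type mean of each gene, for every library, with knockout libraries in red left of wild-type libraries in blue. Phagocytic genes were highest in knockout replicate 3 (0.50) and pan-myeloid genes in knockout replicate 2 (0.37), while for homeostatic genes knockout replicate 1 (-0.00) lay within the wild-type range.

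The shift also differed among the knockout libraries. Knockout replicates 1, 2 and 3 exceeded the wild-type mean for 21, 30 and 31 of the 34 members, and wild-type replicates 1, 2 and 3 for 17, 14 and 17. The library with the highest value was knockout replicate 2 for 13 members and knockout replicate 3 for 9, both female, while knockout replicate 1 was the highest for 4, Tyrobp, Aif1, Siglech and Itgb2. Within males, knockout replicate 1 minus the mean of wild-type replicates 1 and 2 gave a median log2 difference of 0.09 over all members. Within females, the mean of knockout replicates 2 and 3 minus wild-type replicate 3 gave 0.33. The class medians within males and within females were 0.04 and 0.24 for homeostatic, 0.12 and 0.29 for pan-myeloid, 0.15 and 0.38 for phagocytic and -0.09 and 0.28 for MHC class II genes. Each rests on 1 library on 1 side. Tyrobp ran the other way, with 1.66 within males and 0.62 within females, while Lyz2 had 0.48 within males and 1.33 within females.

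Levels relative to Csf1r were compared within each library, since Csf1r is a receptor of the whole lineage. It was chosen with its overlap between genotypes already known, so the ratios are no separate support for the members' differences. Csf1r was highest in wild-type replicate 2, at 5.35 FPKM, which lowers the ratios in that library. The ratio of Tyrobp to Csf1r was 2.05, 1.20 and 1.0 in knockout replicates 1, 2 and 3, against 0.542, 0.447 and 0.761 in wild-type replicates 1, 2 and 3. For Lyz2 it was 0.638, 1.05 and 0.910 in knockout and 0.554, 0.272 and 0.324 in wild-type libraries. The same order without overlap held for Aif1, Laptm5, Mpeg1 and Trem2, so for 6 of the 33 other members, beside 2.68% of all genes set over Csf1r in this way.

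The depth behind these levels was small. Multiplied by relative depth, the FPKM values of 29 of the 34 members were whole multiples of 1 step within 0.03 of a step, and the multiples were read as fragments. They are the smallest whole numbers that give the values, and true counts may be a multiple of them. Summed over the 6 libraries, these members had 3 to 779 fragments, with a median of 76, and 10 had under 60. Tyrobp rested on 26, 17 and 15 fragments in knockout and 5, 7 and 8 in wild-type libraries, and Aif1 on 9, 7 and 6 in knockout and 2, 4 and 3 in wild-type libraries. Lyz2 had 19, 35 and 32 in knockout and 12, 10 and 8 in wild-type libraries. With depth taken into account, the ratio of the summed fragments was 2.63 for Tyrobp (exact 95% interval 1.56 to 4.62), 2.60 for Lyz2 (1.70 to 4.08), 2.22 for Aif1 (0.98 to 5.47), 1.77 for Mpeg1 (1.37 to 2.28) and 1.07 for Csf1r (0.93 to 1.24). These intervals cover counting error only and not the spread between libraries.

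**Figure D4:**
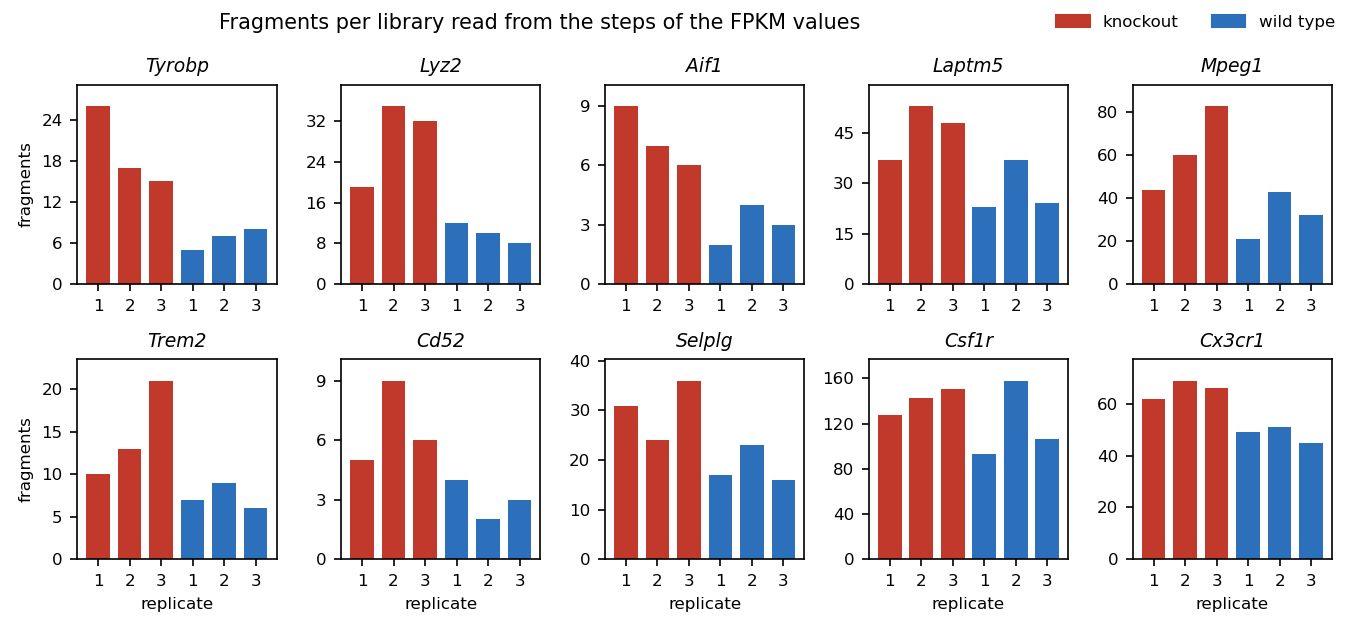
Fragments per library read from the steps of the FPKM values for 10 members, with knockout replicates in red left of wild-type replicates in blue and axes that start at 0. Csf1r rested on 93 to 158 fragments a library, while Cd52 and Aif1 rested on 2 to 9.

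Genes of the same biology outside the 34 were read from lists drawn up for this comparison. Of 20 further phagocytosis and lysosome genes, 15 were tested and 1 passed, the lysosomal protease cathepsin S (Ctss), at 15.3, 16.2 and 17.3 FPKM in knockout and 10.7, 9.91 and 11.0 FPKM in wild-type libraries (log2 difference 0.58, adjusted p = 0.0303). The knockout libraries lay clear of the wild-type libraries. Of the 3 chains of complement C1q, which retinal microglia make, C1qc passed, at 7.03, 6.43 and 9.40 FPKM in knockout and 2.68, 3.51 and 3.09 FPKM in wild-type libraries (log2 difference 1.06, adjusted p = 0.0423). C1qa, the most abundant chain, had 9.68, 12.5 and 14.4 FPKM in knockout and 3.71, 4.67 and 7.73 FPKM in wild-type libraries. Neither C1qa nor C1qb overlapped between genotypes or passed (adjusted p = 0.223 and 0.199). The calls of Ctss and C1qc ended when any 1 of the 6 libraries was left out, with adjusted p-values of 0.085 to 0.158 for Ctss and 0.070 to 0.218 for C1qc. They also ended with no filter, with 1 prior variance for all genes, with the sex term and with the lens term, the last at adjusted p = 0.248 for Ctss and 0.254 for C1qc. Apoe, also made by Müller glia, was the most abundant of the phagocytosis list, at 400 ± 93.9 FPKM in knockout and 292 ± 18.8 FPKM in wild-type libraries (SD, n = 3 each, adjusted p = 0.463).

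None of the other lists had a gene that passed. Of 11 further homeostatic genes, 6 were tested. Ltc4s, an enzyme of leukotriene synthesis, was under the filter at 0.345, 0.692 and 0.334 FPKM in knockout libraries and listed at 0 in all wild-type libraries. Bin1, the most abundant homeostatic gene of this list and also a neuronal gene, had 134, 131 and 146 FPKM in knockout and 141, 136 and 131 FPKM in wild-type libraries. Of 9 myeloid transcription factors, 7 were tested, and Spi1, which encodes PU.1, had 0.235, 0.827 and 0.799 FPKM in knockout and 0.577, 0.770 and 0.273 FPKM in wild-type libraries. Mef2c, the most abundant factor, averaged 17.8 FPKM in the knockout and 19.0 FPKM in the wild type. The 10 signals that keep or restrain microglia were all tested. Sirpa, the receptor for the restraint signal CD47 and the most abundant of them, averaged 40.5 ± 2.16 FPKM in knockout and 39.4 ± 1.69 FPKM in wild-type libraries (SD, n = 3 each). Csf1, a ligand of CSF1R, had 2.22, 2.21 and 2.66 FPKM in knockout and 1.64, 1.58 and 0.973 FPKM in wild-type libraries, without overlap (adjusted p = 0.413), while the other ligand Il34 overlapped, at 3.89 to 5.55 FPKM in knockout and 4.03 to 4.71 FPKM in wild-type libraries.

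Recognition of apoptotic cells was represented by 9 further genes, 8 of them tested. Mfge8, a bridging protein for such cells and the most abundant of the list, averaged 171 ± 2.93 FPKM in knockout and 148 ± 7.73 FPKM in wild-type libraries (SD, n = 3 each, adjusted p = 0.268), without overlap. Timd4 was listed at 0 in every library. Of 14 partners of MHC class II, 5 were tested. The most abundant of them, the promoter-binding factor Rfx5, averaged 9.05 ± 0.296 FPKM in knockout and 8.70 ± 0.703 FPKM in wild-type libraries (SD, n = 3 each). The peptide-loading chain H2-DMa had 3.56, 3.12 and 2.66 FPKM in knockout and 1.68, 2.31 and 1.91 FPKM in wild-type libraries (adjusted p = 0.389), without overlap. Ciita, the master factor of the class, was under the filter at 0.107, 0.128 and 0.260 FPKM in knockout and 0.0895, 0.114 and 0.343 FPKM in wild-type libraries, and H2-DMb1 and H2-Oa were listed at 0 throughout. The log2 difference was above 0 for 9 of 11 further homeostatic genes, 8 of 9 transcription factors, 7 of 10 signals, 17 of 20 phagocytosis and lysosome genes, 6 of 9 genes of apoptotic cell recognition and 7 of 14 MHC class II partners, with medians of 0.15, 0.17, 0.07, 0.13, 0.07 and 0.01 in that order, beside the median of 0.004 of all genes.

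Markers of blood monocytes, neutrophils and lymphocytes were near 0 in both genotypes. The 4 blood monocyte markers summed to 0.269 to 0.685 FPKM in knockout and 0.666 to 1.17 FPKM in wild-type libraries, and Ccr2 was listed at 0 in 5 libraries and at 0.0381 FPKM in knockout replicate 3. Of 7 neutrophil markers listed, Mpo, Elane, Camp and Retnlg were at 0 in all libraries, and the sum was 0.535 to 1.26 FPKM in knockout and 0.170 to 0.974 FPKM in wild-type libraries. The calprotectin chain S100a9 was at 0.833, 1.26 and 0.401 FPKM in knockout libraries and listed at 0 in all wild-type libraries, while its partner S100a8 was listed at 0 in all knockout libraries and at 0, 0.654 and 0.813 FPKM in wild-type libraries. Their part in the members' differences was not tested. The 9 lymphocyte markers summed to 0.613 to 0.786 FPKM in knockout and 0.726 to 0.943 FPKM in wild-type libraries, with Cd3e, Cd3g and Ms4a1 at 0. The 7 dendritic cell markers summed to 3.06 to 4.40 FPKM in knockout and 2.82 to 3.12 FPKM in wild-type libraries, with Cd209a and Ccr7 at 0. The 8 markers of border and perivascular macrophages summed to 6.34 to 8.53 FPKM in knockout and 6.41 to 7.23 FPKM in wild-type libraries. Most of that sum was Lyve1, which lymphatic vessels also express, and Mrc1 was listed at 0 outside knockout replicate 3, where it had 0.227 FPKM.

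RNA of tissues next to the retina moved with the members in part. The 8 pigment epithelium markers summed to 22.0, 78.2 and 89.7 FPKM in knockout replicates 1, 2 and 3 and to 27.4, 44.7 and 49.4 FPKM in the wild-type replicates. The 6 markers of ciliary body, iris and cornea summed to 33.6, 9.37 and 41.3 FPKM in the knockout and to 3.18, 14.3 and 2.73 FPKM in the wild type. For the lens and the pigment epithelium knockout replicates 2 and 3 were the highest 2 libraries, as they were for the sum over the members. Wild-type replicate 2 had more lens RNA than knockout replicate 1 and the lowest sum over the members. The part of this RNA in the members' differences was not tested, and the fit with the lens term gave a median of 0.13 over all members.

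**Figure D5:**
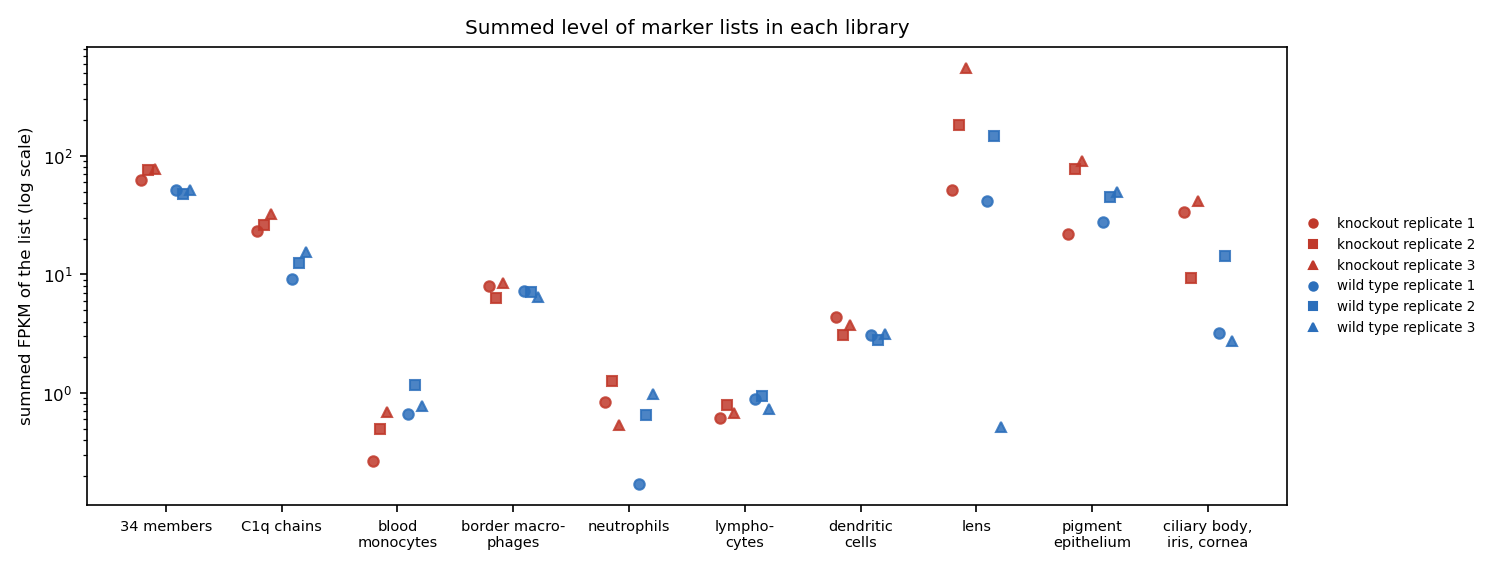
Summed FPKM of the 34 members, the C1q chains and marker lists of other cells and tissues in each library, on a log axis, with knockout libraries in red left of wild-type libraries in blue. The sums of the members and of the C1q chains in each knockout library lie above those in each wild-type library, the monocyte, neutrophil and lymphocyte lists reach at most 1.26 FPKM, and the lens list runs from 0.514 to 553 FPKM.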

How the data were processed

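RNA of whole retina was measured in 6 libraries, 3 per genotype, grouped by the genotype in the labels. Per the labels' protocols, retinal RNA was TRIzol-extracted and sequenced from stranded mRNA libraries. Per the submitters' processing notes, TopHat2 2.1.1, Cuffdiff 2.2.1 and mm10 were used. The sources used here give no gene annotation, strand setting or scaling between libraries. For each library the authors deposited FPKM values per gene symbol, the unit being in the file headers. FPKM is not a count, so no count test was used, and a gene listed at 0 can be a failed estimate.

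Genes with a mean of at least 0.5 FPKM were compared, knockout against wild type, on log2(FPKM + 1) with limma 3.58.1 (R 4.3.3), two-sided, with a mean-dependent prior variance and Benjamini-Hochberg adjustment over all 14176 genes at a threshold of 0.05. The procedure was run on simulated data, and the outcome is not given here. The simulation drew independent noise for each gene and library. It therefore does not cover differences shared by many genes, such as those of lens RNA or sex. An exact permutation test of 3 against 3 libraries cannot go below 0.1. The members, classes and other lists were chosen with earlier results of these data known, so the lists were described by counts and medians beside those of all genes, with no test over a list. The genes given in full are, in each class, up to 5 members with the smallest unadjusted p and the one with the highest mean, and in each other list the genes called and the most abundant gene. The other genes named from those lists were chosen after their values were seen. Positions and overlaps come from a GENCODE annotation of GRCm38, the build also called mm10, and promoters from RefSeq on GRCm38.p6.

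For relative depth, each library was set against wild-type replicate 2. The commonest ratio among genes at or under 0.3 FPKM in both was taken, within 0.015 log2 units. From 27.8% to 30.6% of such genes lay at that ratio. Joins, depth and plots used Python 3.11.15 with pandas 2.3.3, scipy 1.17.1 and matplotlib 3.10.9. Alternatives were another pseudocount, other filters, other scalings, another prior variance, library weights, a replicate block, a sex term, a lens term and leaving out each library.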

Additional observations from a re-analysis of the deposited data

How the results depend on the processing

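No member was called in either direction under any of the 16 alternatives, at any adjusted p under 0.05. Over all genes, 29 were called higher and 4 lower in the knockout. With 1 prior variance 17 were called higher, with no filter 2 were called lower, with a sex term 17 and 2 were called, and with the lens term 5 and 2, and leaving out 1 library gave 9 to 14 called higher and 2 to 4 called lower. Members higher at an unadjusted p under 0.05 numbered 9, with 5 under the sex term and under the lens term and 4 to 12 without 1 library. Over all genes tested, 736 were higher at that threshold in the main fit. Quantile normalization gave 8 members and 593 genes, and library weights gave 8 members and 754 genes. The counts over all genes under the sex and lens terms and without 1 library are not given here. The median log2 difference of all members, 0.20, was 0.37 with a pseudocount of 0.1 and 0.13 with the lens term, and 0.15 to 0.25 without 1 library. The median was 0.14 to 0.23 for homeostatic genes without 1 library. For pan-myeloid genes it was 0.55 with a pseudocount of 0.1 and 0.14 to 0.23 without 1 library. For phagocytic genes it was 0.11 with the lens term and 0.16 to 0.49 without 1 library. For MHC class II genes it changed sign, to -0.024 with quantile normalization and -0.021 with the lens term, and ran from -0.038 to 0.16 without 1 library. A lower pseudocount widens differences of low genes by construction, and fits with fewer libraries or an added term have fewer residual degrees of freedom. Other causes were not tested.

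Several members with a small difference changed sign. With quantile normalization P2ry13 gave -0.0089, Gpr34 -0.014, Ly86 -0.073 and H2-Ab1 -0.024. Library weights gave 0.019 for Fcgr3. The sex term gave -0.050 for Gpr34, -0.050 for Fcgr1 and 0.023 for Fcgr3. The lens term gave -0.028 for P2ry12, -0.0029 for P2ry13, -0.028 for Gpr34, -0.000145 for Csf1r, 0.044 for Lpl and -0.088 for H2-Ab1. Leaving out 1 library gave -0.019 to 0.24 for P2ry12, -0.07 to 0.14 for P2ry13, -0.10 to 0.25 for Gpr34, -0.033 to 0.25 for Fcgr1, -0.26 to 0.11 for Fcgr3, -0.13 to 0.13 for Ly86, -0.078 to 0.070 for Lpl and -0.056 to 0.16 for H2-Ab1. Among members under the filter, Cst7 gave -0.013 with the sex term, -0.21 with the lens term and -0.093 to 0.26 without 1 library, C3ar1 gave -0.0049 with the sex term, and H2-Aa gave -0.15 to 0.067 without 1 library.

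Deviations of same-numbered libraries correlated at 0.07, -0.09 and -0.12 for numbers 1, 2 and 3. Those of libraries with unlike numbers correlated at -0.08 to 0.17. These values cannot show whether libraries of the same number share more than that number. With the replicate block 13 genes were called higher and 2 lower. At an unadjusted p under 0.05, 8 members were higher in the knockout, beside 708 of the 14176 genes tested. Under that block Ctss had an adjusted p of 0.108 and C1qc of 0.135. At 2 to 9 fragments a library, as for Cd52 and Aif1, depth limits what a single member can show.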
